A study of Mus musculus with 48 samples.

Results

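Macrophage and monocyte RNA was followed through 10 genes in mouse aortas with defective elastic fibres. The genes were Itgam, Lyz2, Cd68, Adgre1, Cx3cr1, Csf1r, Ctss, Ccr2, C1qa and Mrc1. They were chosen by name as markers of these cells, out of 22180 genes with a gene symbol of their own on the array. The choice was made with earlier results of these data known, so counts of the 10 beside the share of all genes are descriptions. All 10 were found, each with 1 probe set (a group of array probes for 1 gene), and all 10 were among the 15337 genes that reached the level needed for testing.

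The study compared knockout (KO) and wild-type (WT) aortas in 3 models. The Eln model lacks elastin, the Efemp2 model lacks fibulin-4, and the Lox model lacks lysyl oxidase. Ascending aorta (AA) and descending aorta (DA) were taken at E17.5, day 17.5 of embryonic life, or at P1, day 1 after birth, which gave 24 groups of 2 arrays. Each array held RNA of 8 pooled aortas, so p values measure the spread between pools. The Eln and Efemp2 mice were C57BL/6 and the Lox mice B6 albino, each model had its own WT, and the labels name the genotype only as WT or KO, with no allele, sex or treatment. The pools came from whole, snap-frozen pieces of aorta, so every cell of the wall and the blood in it could contribute RNA.

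Macrophages of the arterial wall come from embryonic precursors that settle there before birth and from blood monocytes that enter later. Resident macrophages carry the fractalkine receptor Cx3cr1, the growth factor receptor Csf1r, the surface protein Adgre1 (F4/80), the mannose receptor Mrc1 and the complement protein C1qa. Monocytes that enter tissue from blood need the chemokine receptor Ccr2, and they carry the integrin subunit Itgam (CD11b) and the lysozyme Lyz2. Cd68, a protein of lysosomes and endosomes, and Ctss, the protease cathepsin S, are made by both kinds of cell. The 5, 3 and 2 genes so grouped are called resident, recruited and lysosomal markers below. None of these genes is exclusive to its side, and Itgam and Lyz2 are also strong in neutrophils.

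The master regulator of these cells, the transcription factor PU.1, binds DNA around a GAGGAA core. Promoters of 3 members that moved together are shown for that reason. RefSeq windows (build GRCm38.p6, from 250 bases before to 50 bases after the start of the gene) were found for 7 of the 10 genes. The 3 windows printed are those of the genes changed in a mean KO contrast that held the most GAGGAA matches. They lie at chr7:128062390-128062689 (plus strand) for Itgam, chr11:69666121-69666420 (minus strand) for Cd68 and chr3:95526536-95526835 (plus strand) for Ctss. Capitals mark GAGGAA or, for a match on the other strand, TTCCTC.
Itgam: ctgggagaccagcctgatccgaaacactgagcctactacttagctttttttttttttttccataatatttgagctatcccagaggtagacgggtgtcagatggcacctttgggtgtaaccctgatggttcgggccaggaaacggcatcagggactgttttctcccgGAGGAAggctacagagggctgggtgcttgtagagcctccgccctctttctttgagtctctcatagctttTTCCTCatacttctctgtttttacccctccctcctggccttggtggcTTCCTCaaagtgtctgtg
Cd68: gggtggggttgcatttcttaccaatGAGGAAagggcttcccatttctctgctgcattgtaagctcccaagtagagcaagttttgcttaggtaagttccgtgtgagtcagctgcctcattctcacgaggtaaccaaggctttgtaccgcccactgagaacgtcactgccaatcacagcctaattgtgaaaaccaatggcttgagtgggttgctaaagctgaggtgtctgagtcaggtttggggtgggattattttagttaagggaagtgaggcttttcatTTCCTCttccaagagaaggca
Ctss: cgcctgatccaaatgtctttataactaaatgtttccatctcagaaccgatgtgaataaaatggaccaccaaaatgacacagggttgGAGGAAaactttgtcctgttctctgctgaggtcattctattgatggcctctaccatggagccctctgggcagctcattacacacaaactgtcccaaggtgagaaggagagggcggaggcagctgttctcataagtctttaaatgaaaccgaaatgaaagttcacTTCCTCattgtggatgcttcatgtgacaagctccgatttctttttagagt

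In the Itgam window 1 match lay on the gene's strand, at positions -84 to -79 from the start, and 2 lay on the other strand. The Cd68 window held 2 matches and the Ctss window held 2, of which the match on the other strand in Ctss began at the start site. Mrc1, which passed the test in no KO comparison, held 3. Lyz2, Ccr2 and Cx3cr1, each called in a mean KO contrast, held 0. GAGGAA was present on either strand in 4 of the 7 windows and in 28.3% of 32851 windows of all genes in the table. The longer form GAGGAAGT, which overlaps the core, was present in the Ctss window alone of the 7 and in 3.20% of all windows. TTGCNNAA, a form bound by C/EBP factors, was present in the Cd68 window alone of the 7 and in 10.8% of all windows. These are matches of letters only.

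Levels are given as log2 signal, and a difference is the KO level minus the WT level on that scale unless stated, with standard errors from limma. A gene is called higher or lower when its p value, adjusted over all 15337 genes of the comparison, was under 0.05. Array medians ran from 3.71 to 5.35, lowest in the Lox E17.5 arrays and highest in the Lox P1 arrays, so levels are not compared between the stages or models. Replicate arrays correlated across genes with a median r of 0.970, and the lowest was 0.875. Eln was at 4.23 to 5.56 in Eln KO and at 9.20 to 11.91 in Eln WT, and Lox was at 6.26 to 8.71 in Lox KO and at 9.55 to 11.48 in Lox WT. No probe set here names Efemp2 alone, so that deletion was not checked. The smooth muscle list averaged 8.23 to 10.32 on every array. Where all genes shifted by more than 0.1 in a comparison, values are given less that shift, which was 0.27 in Eln DA P1, -0.20 in Lox AA P1 and -0.17 in Lox DA P1, while p values are those of the unshifted difference. Among the Eln and Efemp2 P1 arrays, 4 WT arrays had a raised background: both of Eln DA and replicate 2 of Efemp2 AA and of Efemp2 DA. Their median over the 16010 probe sets with no gene symbol was 4.35 to 4.37, against at most 4.14 on the other Eln and Efemp2 arrays. In Lox at P1 that median was 4.67 to 4.74 in WT and 4.22 to 4.57 in KO.

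**Figure D1:**
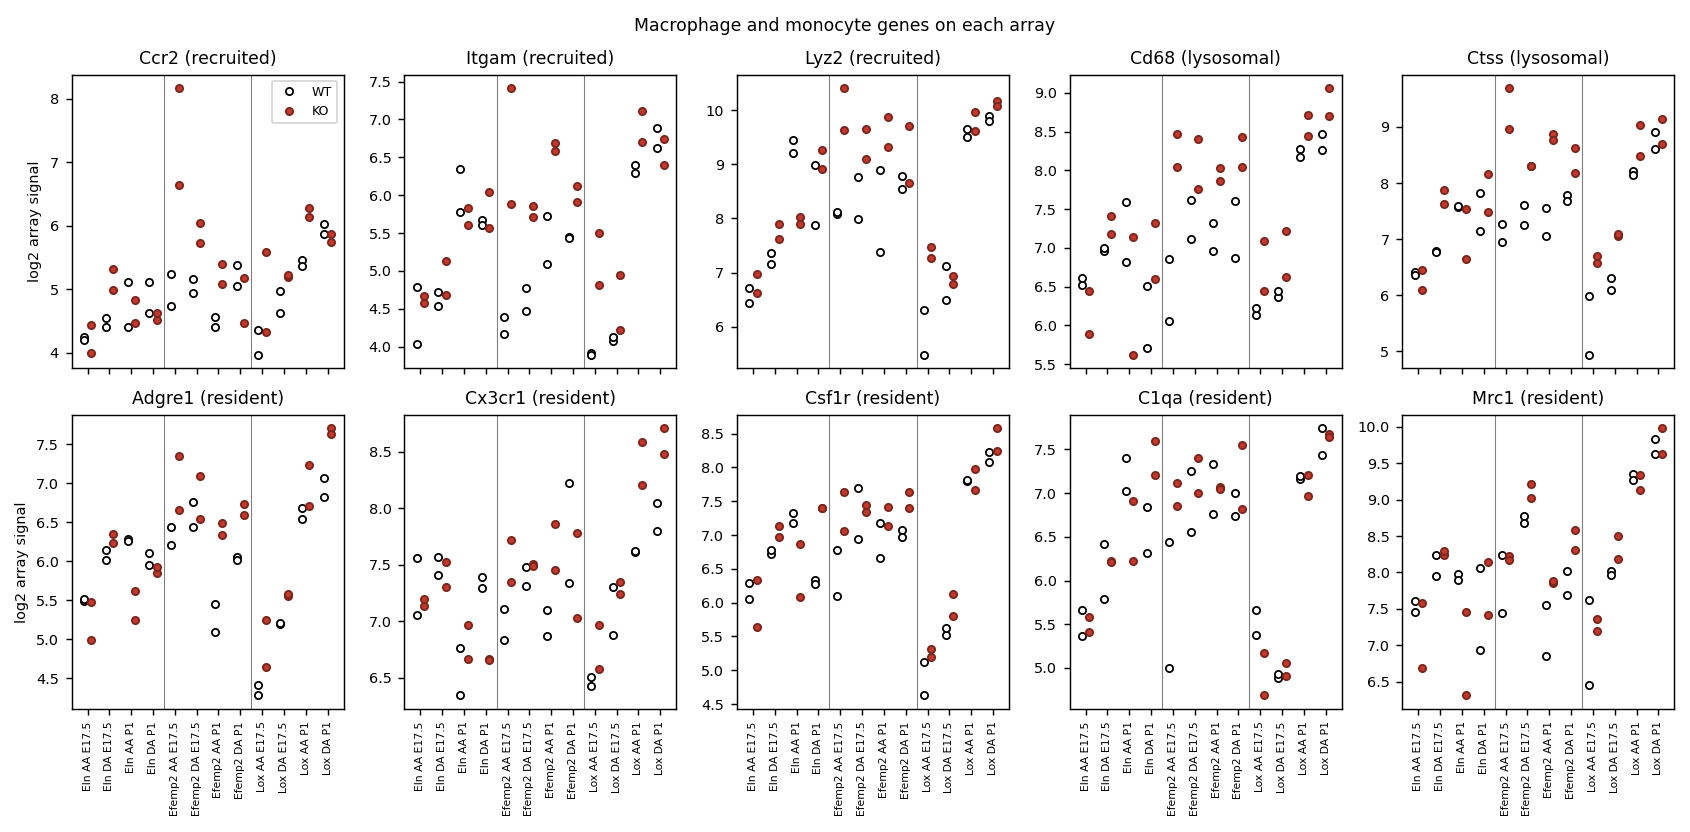
Log2 signal of the 10 genes on each of the 48 arrays, by model, location and stage along the horizontal axis (open circles WT, filled circles KO, 2 arrays each). In the Efemp2 AA E17.5 pair the KO arrays of Ccr2, at 8.17 and 6.64, stand above the WT arrays at 5.23 and 4.74, and levels of different genes or stages are not comparable.

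Efemp2 KO aortas had more RNA of the recruited and lysosomal markers than their WT. Averaged over both locations and stages, 8 arrays per genotype, Itgam rose by 1.33 ± 0.16, Ctss by 1.32 ± 0.15, Lyz2 by 1.22 ± 0.19, Cd68 by 1.08 ± 0.19 and Ccr2 by 0.90 ± 0.17. Of the resident markers Adgre1 rose, by 0.67 ± 0.11, and Mrc1, C1qa, Csf1r and Cx3cr1 did not pass the test, at 0.50, 0.47, 0.45 and 0.24. Their adjusted p values in limma were 0.12, 0.113, 0.0505 and 0.354 in the same order. Csf1r was called under 3 of 9 other ways of processing. All 10 differences were positive, and the recruited and resident markers were not tested against each other. In all, 6 of the 10 genes were called higher and 0 lower, beside 3.14% of all tested genes called higher and 0.665% lower. In pooled tissue, more cells of a type and more RNA per cell cannot be told apart.

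Itgam, the alpha chain of the integrin with which monocytes and neutrophils cross the vessel wall, had WT arrays at 4.17 and 4.39 and KO arrays at 7.42 and 5.89 in AA at E17.5. The E17.5 DA pair had WT arrays of 4.47 and 4.78 and KO arrays of 5.85 and 5.71. At P1 AA read 5.09 and 5.72 in WT against 6.69 and 6.59 in KO, and DA 5.45 and 5.44 against 6.13 and 5.91. Both KO arrays were above both WT arrays in all 4 pairs (adjusted p = 2.94e-06 for the mean).

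Ctss, which cuts elastin and the invariant chain of MHC class II, had WT arrays at 7.27 and 6.96 and KO arrays at 9.70 and 8.96 in AA at E17.5. In DA at E17.5 it read 7.25 and 7.61 in WT and 8.31 on both KO arrays. At P1 it read 7.56 and 7.05 against 8.88 and 8.78 in AA, and 7.78 and 7.67 against 8.62 and 8.18 in DA. The groups did not overlap in any of the 4 pairs (adjusted p = 1.25e-06).

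Lyz2, which breaks down bacterial walls, was at 8.09 and 8.12 in WT and 10.41 and 9.64 in KO in AA at E17.5, and at 7.99 and 8.77 against 9.66 and 9.09 in DA. At P1 AA read 8.90 and 7.39 in WT against 9.87 and 9.33 in KO. In DA at P1 the KO arrays, at 9.71 and 8.66, overlapped the WT arrays, at 8.78 and 8.55. The mean difference had an adjusted p of 0.000102 and the same sign in 4 of 4 pairs.

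Cd68 was at 6.05 and 6.86 in WT and at 8.47 and 8.04 in KO in AA at E17.5, and at 7.11 and 7.62 against 8.41 and 7.76 in DA. At P1 it read 7.33 and 6.96 against 8.03 and 7.86 in AA, and 7.60 and 6.87 against 8.43 and 8.05 in DA. No pair overlapped (adjusted p = 0.000387).

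Ccr2, the receptor for the chemokine Ccl2, was the member whose difference varied most between the Efemp2 pairs. In AA at E17.5 WT arrays read 5.23 and 4.74 and KO arrays 8.17 and 6.64, and in DA 5.16 and 4.94 against 5.74 and 6.04. At P1 AA read 4.56 and 4.41 against 5.08 and 5.41. In DA at P1 the direction was the opposite, with WT arrays at 5.06 and 5.38 and KO arrays at 4.47 and 5.18, which overlapped. The mean had an adjusted p of 0.00134 with the same sign in 3 of 4 pairs. Ccr2 lay under 4.94, the level used as the filter, in 11 of all 24 groups and Itgam in 9, so their low values are compressed towards background.

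Adgre1 was at 6.21 and 6.44 in WT and 7.35 and 6.66 in KO in AA at E17.5, and at 5.44 and 5.09 against 6.49 and 6.34 in AA at P1. In DA at P1 it read 6.05 and 6.02 against 6.59 and 6.73. In DA at E17.5 the arrays overlapped, at 6.44 and 6.76 in WT and 7.09 and 6.54 in KO. The mean had an adjusted p of 0.000275 with the same sign in 4 of 4 pairs.

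By single pair, the calls lay in the ascending aorta. In Efemp2 AA E17.5, Ccr2 rose by 2.42 ± 0.35, Itgam by 2.37 ± 0.33, Ctss by 2.22 ± 0.31, Lyz2 by 1.92 ± 0.38 and Cd68 by 1.80 ± 0.37, so 5 of 10 were called higher beside 0.548% of all genes, and 0 lower beside 0.0652%. Lyz2 and Cd68 lost the call when KO replicate 1, the array with the highest Ccr2 and Itgam, was left out, and also without WT replicate 1. That WT replicate 1 of Efemp2 AA E17.5 also read Eln at 9.69, against 11.70 on WT replicate 2. The part of this in the calls of the pair was not tested. In Efemp2 AA P1, Ctss rose by 1.53 ± 0.31, Lyz2 by 1.45 ± 0.38, Itgam by 1.23 ± 0.33 and Adgre1 by 1.14 ± 0.23, 4 of 10 beside 3.03% of all genes. There Lyz2 and Itgam lost the call when either KO array was left out. Itgam lost it also without WT replicate 1, and Lyz2, at 0.70, without WT replicate 2, an array of raised background. In DA none of the 10 was called higher by limma at E17.5, beside 0.0391% of all genes, or at P1, beside 1.28%. At an unadjusted p under 0.05, 4 of the 10 were higher in DA at E17.5, beside 2.94% of all genes at that threshold, and 3 at P1, beside 10.9%.

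The Efemp2 difference in DA less that in AA was negative for 10 of 10 genes, from -1.37 for Ccr2 to -0.01 for Mrc1. Limma called 0 of the 10, and 0 of all genes, in this comparison of locations, with 6 of the 10 lower at an unadjusted p under 0.05, beside 3.11% of all genes. The data therefore do not show a location difference that holds after adjustment. Between the stages, the Ccr2 difference at P1 was lower than at E17.5 by -1.55 ± 0.35 less the shift of all genes (adjusted p = 0.0361, beside 0.183% of all genes called lower), and the other 9 were not called. The Ccr2 call for stage was lost with no filter, with loess, with the Efemp2 arrays alone and without the arrays of raised background.

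**Figure D2:**
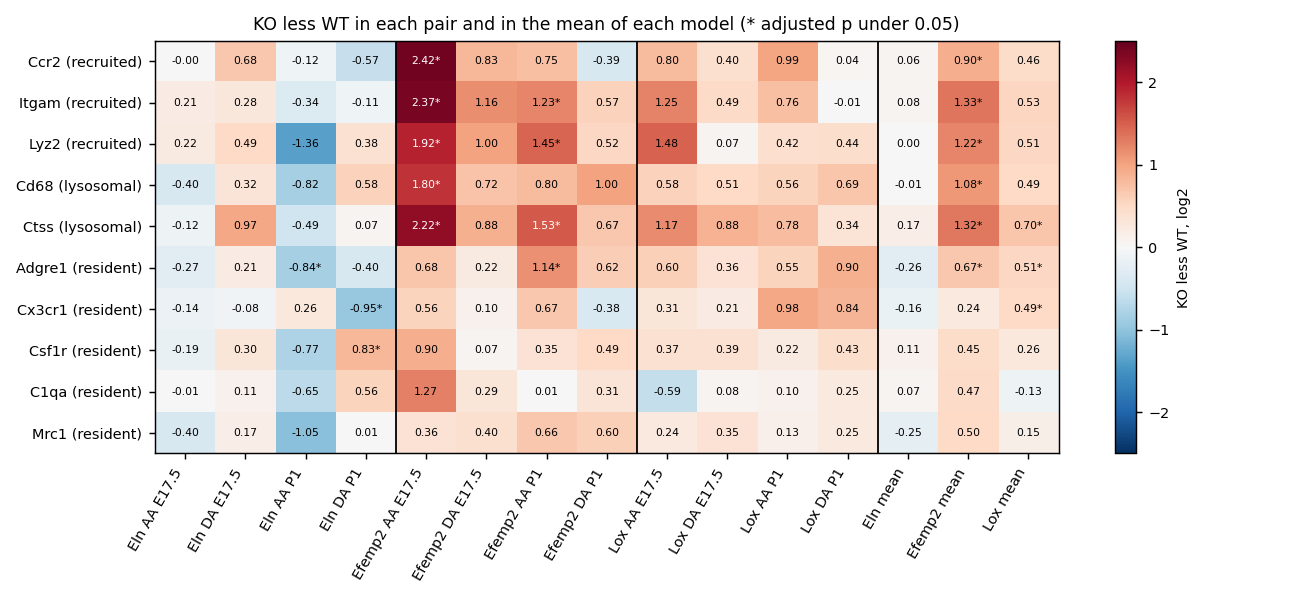
KO less WT (log2) for each gene (rows) in the 12 pairs and in the mean over the 4 pairs of each model (columns); the 3 pairs whose genes shifted by more than 0.1 are shown less the shift, red is higher in KO, blue lower, and a star marks an adjusted p under 0.05. The Efemp2 AA E17.5 column holds the 5 called rises from 1.80 to 2.42, and the Eln mean column holds no star.

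Lox KO aortas had more RNA of 3 of the markers than their WT, 2 of them resident. Ctss rose by 0.70 ± 0.15 (adjusted p = 0.0112), Adgre1 by 0.51 ± 0.11 (adjusted p = 0.0124) and Cx3cr1 by 0.49 ± 0.13 (adjusted p = 0.0379), each with the same sign in 4 of 4 pairs. These were 3 of 10 genes, beside 0.561% of all genes called higher. The recruited markers Itgam, Lyz2 and Ccr2 were at 0.53, 0.51 and 0.46 and Cd68 at 0.49, none past the test, while Csf1r was at 0.26, Mrc1 at 0.15 and C1qa at -0.13.

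Ctss in Lox AA at E17.5 was at 4.94 and 5.99 on the WT arrays and 6.57 and 6.70 on the KO arrays, and in DA at 6.09 and 6.31 against 7.06 and 7.10. At P1 it read 8.22 and 8.14 against 9.03 and 8.48 in AA, and 8.90 and 8.61 against 9.15 and 8.69 in DA. Only the DA pair at P1 overlapped among these 4.

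Adgre1 read 4.41 and 4.28 in WT against 4.65 and 5.25 in KO in AA at E17.5, and 5.20 and 5.21 against 5.55 and 5.58 in DA. At P1 it read 6.54 and 6.68 against 7.23 and 6.70 in AA, and 7.06 and 6.82 against 7.70 and 7.63 in DA. No pair overlapped, though WT replicate 2 and KO replicate 2 of AA at P1 were nearly equal.

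Cx3cr1, the receptor by which resident macrophages bind fractalkine, read 6.43 and 6.51 against 6.58 and 6.97 in AA at E17.5 and 7.30 and 6.88 against 7.24 and 7.35 in DA. At P1 it read 7.62 and 7.63 against 8.59 and 8.20 in AA, and 8.05 and 7.80 against 8.71 and 8.48 in DA. The E17.5 DA arrays overlapped and the 3 other pairs did not.

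No member was called in a single Lox pair, where 0.00652% to 0.170% of all genes were called higher. At an unadjusted p under 0.05, the E17.5 pairs had 5 of the 10 higher in AA, beside 3.41% of all genes, and 1 in DA, beside 2.42%. Each P1 pair had 2, beside 1.11% in AA and 1.23% in DA. The Lox calls rested on few arrays. Cx3cr1 lost its call under 11 of the 48 single arrays left out, and with loess or no filter. Ctss alone was left without KO AA E17.5 replicate 2 or without KO AA P1 replicate 1, and Adgre1 alone without KO DA P1 replicate 1. With the Lox arrays fitted alone, 6 of the 10 were called, and Itgam, Lyz2 and Cd68 joined the 3.

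In Eln KO aortas the markers showed no common direction. Averaged over the 4 pairs, limma called 0 of 10, beside 2.74% of all genes higher and 0.541% lower, and so did a fit with trended, robust variances. At an unadjusted p under 0.05, 1 was lower and 0 higher, beside 4.04% and 11.7% of all genes. The differences ran from -0.26 ± 0.11 for Adgre1 and -0.25 for Mrc1 to 0.17 for Ctss, with Cx3cr1 at -0.16, Csf1r at 0.11, Itgam at 0.08, C1qa at 0.07, Ccr2 at 0.06, Cd68 at -0.01 and Lyz2 at 0.00. The signs of Cx3cr1, Csf1r, C1qa, Itgam and Lyz2 turned under other processing.

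The Eln pairs differed among themselves. In AA at P1, 9 of 10 genes were lower in KO, and Adgre1, at 6.29 and 6.26 in WT and 5.25 and 5.62 in KO, was called at -0.84 ± 0.23 (adjusted p = 0.0455, beside 0.665% of all genes lower). Lyz2 there was at 9.44 and 9.21 in WT and 7.90 and 8.03 in KO, groups that did not overlap, yet its difference of -1.36 ± 0.38 missed the threshold (adjusted p = 0.0611). Mrc1 was at 7.98 and 7.90 against 6.32 and 7.46. In this pair 5 of the 10 were lower and 0 higher at an unadjusted p under 0.05 in limma. The share of all genes at that threshold was not counted for this pair. The Adgre1 call was lost under 24 of the 48 single arrays left out.

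In DA at P1 of the Eln model, where both WT arrays had the raised background and 19.8% of all genes were called higher and 5.74% lower, Csf1r was higher and Cx3cr1 lower. Csf1r read 6.33 and 6.27 in WT and 7.39 and 7.40 in KO, 0.83 ± 0.27 less the shift (adjusted p = 0.0042). Cx3cr1 read 7.39 and 7.30 against 6.67 and 6.66, -0.95 ± 0.25 less the shift (adjusted p = 0.045). With array background as a covariate neither was called, and the part of the background in these calls was not tested further. The Csf1r difference in DA exceeded that in AA by 1.00 ± 0.27 less the shift (adjusted p = 0.0166, beside 3.13% of all genes). It was the only member whose Eln difference was called to differ by location, and with the background covariate or loess it was not. Before the shift, the Eln difference in DA less that in AA was positive for 9 of the 10 genes. Their median was 0.70 less the shift. In limma 7 of the 10 were higher and 0 lower in this comparison of locations at an unadjusted p under 0.05. These p values are before the shift of all genes, which was 0.18, and the share of all genes at that threshold was not counted. At E17.5, limma called 0 of 10 in AA or DA, with 0.0391% and 0.0326% of all genes called higher and 0.0848% and 0.0130% lower. At an unadjusted p under 0.05, 0 of 10 passed in AA, beside 1.70% of all genes higher and 1.90% lower, and 1 was higher in DA, beside 2.06%.

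Tested directly, the Efemp2 difference exceeded the Eln difference for 5 of the 10 genes, beside 0.359% of all genes. Itgam differed by 1.26 ± 0.23 (adjusted p = 0.00573), Lyz2 by 1.22 ± 0.27 (adjusted p = 0.029), Ctss by 1.15 ± 0.22 (adjusted p = 0.00677), Cd68 by 1.09 ± 0.26 (adjusted p = 0.0468) and Adgre1 by 0.93 ± 0.16 (adjusted p = 0.00247). Ccr2, at 0.84 ± 0.25, did not pass (adjusted p = 0.151). The Cd68 call was lost under 35 of the 48 single arrays left out and with no filter, and the Lyz2 call under 12 of the 48. The calls of Adgre1, Itgam and Ctss were lost under none of the 48 or of the 8 other settings. The Lox difference exceeded the Eln difference for Adgre1, by 0.91 ± 0.16 less the shift (adjusted p = 0.0209, beside 0.0261% of all genes), but not without the arrays of raised background. Between Efemp2 and Lox limma called 0 of the 10, beside 0.0261% of all genes, and 5 were higher in Efemp2 at an unadjusted p under 0.05, beside 9.43% of all genes. The difference was 0.68 ± 0.23 for Itgam and -0.38 ± 0.18 for Cx3cr1 less the shift, and it passed for Itgam without Efemp2 KO AA E17.5 replicate 2.

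Set side by side, the recruited markers had the larger median difference in most pairs. Less the shift of all genes in each pair, the recruited median exceeded the resident median in 10 of 12 pairs, 4 of 4 for Efemp2, 3 of 4 for Lox and 3 of 4 for Eln. The gap was widest in Efemp2 AA E17.5, at 2.40 for recruited, 2.03 for lysosomal and 0.71 for resident markers. It was 1.00, 0.80 and 0.22 in Efemp2 DA E17.5, 1.15, 1.08 and 0.59 in AA P1, and 0.42, 0.74 and 0.39 in DA P1, where recruited and resident medians were nearly the same. These medians over 3, 2 and 5 genes are descriptions without a test. In the Efemp2 mean, before any shift, the medians were 1.22 for recruited and 0.47 for resident markers. The gap was smaller in the wider lists described below, at 0.51 over 9 recruited monocyte genes and 0.39 over 15 resident macrophage genes. In the Lox mean those 2 lists were at 0.21 and 0.10, and in the Eln mean at -0.05 and -0.03.

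In the Lox pairs the recruited, lysosomal and resident medians were 1.25, 0.88 and 0.30 in AA E17.5 and 0.76, 0.67 and 0.22 in AA P1. In the Lox DA pairs they were 0.36, 0.66 and 0.32 at E17.5 and 0.04, 0.51 and 0.43 at P1. The recruited median was the highest of the 3 in both Lox AA pairs and in neither Lox DA pair. In the Eln pairs they were 0.26, -0.21 and -0.14 in AA E17.5, 0.47, 0.62 and 0.15 in DA E17.5, -0.36, -0.67 and -0.79 in AA P1, and -0.11, 0.33 and 0.01 in DA P1. The Eln medians lay on both sides of 0 for each group of markers.

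**Figure D3:**
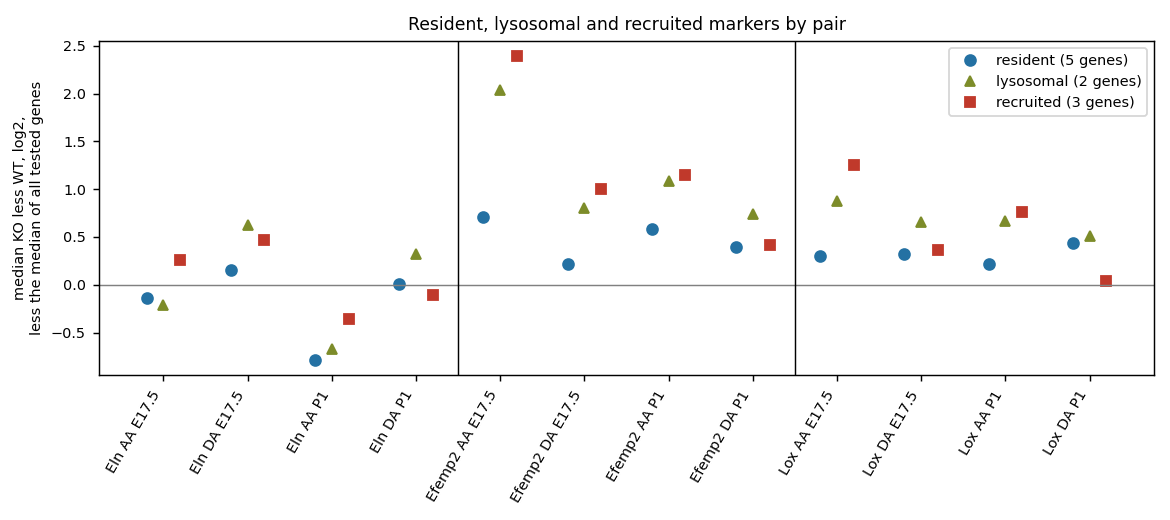
Median KO less WT (log2, less the median of all tested genes) over the 5 resident, 2 lysosomal and 3 recruited markers in each of the 12 pairs. The recruited median is above the resident median in 10 pairs, and the widest gap, 2.40 against 0.71, is in Efemp2 AA E17.5.

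Pairs whose arrays did not overlap were counted for each model. Both KO arrays lay above both WT arrays for 9, 7, 8 and 6 of the 10 genes in Efemp2 AA E17.5, DA E17.5, AA P1 and DA P1, beside 14.9%, 16.6%, 27.6% and 26.4% of all genes. In Lox the counts were 7, 7, 6 and 5 in the same order, beside 15.0%, 25.6%, 8.33% and 7.60%. In Eln they were 0, 6, 0 and 3, beside 15.2%, 25.8%, 21.4% and 38.7%, and both KO arrays lay below both WT arrays for 2, 0, 6 and 3, beside 26.8%, 17.6%, 19.2% and 13.8%. The Efemp2 pairs had 0 genes below, beside 19.1%, 18.3%, 13.6% and 12% of all genes. The Lox pairs had 1 below (C1qa, AA E17.5), 0, 0 and 1 (Ccr2, DA P1), beside 15.1%, 16.4%, 54.6% and 44.7%.

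In WT aortas 3 of the 5 resident markers were higher in the descending than in the ascending aorta. Averaged over the 6 WT pairs of locations, DA exceeded AA by 0.52 ± 0.10 for Cx3cr1 (adjusted p = 0.000839, 6 of 6 pairs), 0.43 ± 0.09 for Adgre1 (adjusted p = 0.00224, 5 of 6), 0.50 ± 0.15 for Mrc1 (adjusted p = 0.0257, 5 of 6) and 0.39 ± 0.12 for Ctss (adjusted p = 0.0462, 5 of 6). These 4 of 10 stand beside 4.64% of all genes called higher in DA. Ccr2, at 0.39 ± 0.14 and higher in 6 of 6 pairs, did not pass (adjusted p = 0.0811). Lyz2 was at 0.30, Csf1r at 0.28, Itgam and C1qa at 0.13 and Cd68 at 0.11. The Ctss call was lost under 29 of the 48 single arrays left out and the Mrc1 call under 4, namely Eln WT DA E17.5 replicate 2, Eln WT DA P1 replicate 1, Efemp2 WT AA E17.5 replicate 1 and Lox WT AA E17.5 replicate 1.

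In Eln WT at E17.5, Cx3cr1 read 7.56 and 7.06 in AA against 7.57 and 7.41 in DA. At P1 the same groups read 6.35 and 6.76 against 7.39 and 7.30. In Efemp2 WT it read 6.84 and 7.11 against 7.48 and 7.31 at E17.5 and 6.87 and 7.10 against 7.34 and 8.23 at P1. In Lox WT it read 6.43 and 6.51 against 7.30 and 6.88, and 7.62 and 7.63 against 8.05 and 7.80. AA and DA did not overlap in 5 of these 6 pairs, the exception being Eln at E17.5.

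Adgre1 read 5.49 and 5.51 in AA and 6.15 and 6.02 in DA in Eln WT at E17.5, and 6.29 and 6.26 against 5.95 and 6.10 at P1, the reverse order. In Efemp2 WT it read 6.21 and 6.44 against 6.44 and 6.76, which did not overlap before rounding, and 5.44 and 5.09 against 6.05 and 6.02. In Lox WT it read 4.41 and 4.28 against 5.20 and 5.21, and 6.54 and 6.68 against 7.06 and 6.82. DA lay above AA without overlap in the 5 pairs other than Eln WT at P1.

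Mrc1, the mannose receptor, read 7.46 and 7.61 in AA and 7.95 and 8.24 in DA in Eln WT at E17.5, 7.44 and 8.24 against 8.77 and 8.68 in Efemp2 WT, and 6.46 and 7.62 against 8.02 and 7.96 in Lox WT. At P1 it read 7.98 and 7.90 against 8.06 and 6.94, 7.55 and 6.86 against 8.02 and 7.69, and 9.35 and 9.27 against 9.83 and 9.62. Of the 6, only the Eln WT pair at P1 overlapped.

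By stage, Mrc1 rose from AA to DA by 0.80 ± 0.21, Csf1r by 0.72 ± 0.16 and Adgre1 by 0.57 ± 0.13 in the E17.5 mean (3 of 10, beside 2.21% of all genes), and Cx3cr1 by 0.63 ± 0.15 in the P1 mean (1 of 10, beside 4.96%). The Mrc1 call at E17.5 was lost with only the WT arrays fitted, and without Eln WT AA replicate 1, Eln WT DA replicate 2, Efemp2 WT AA replicate 1, Lox WT AA replicate 1 or Lox WT DA replicate 1 of that stage. The Cx3cr1 difference at P1 was 0.39 without the arrays of raised background and was not called (adjusted p = 0.284). Whether the stages differ was not tested. In the single WT pairs, calls were made only in Eln at P1, where the DA arrays had the raised background and 8.12% of all genes were called higher and 22.2% lower. There Cx3cr1 was higher in DA by 1.02 ± 0.25, and Csf1r and Cd68 were lower by -0.71 ± 0.27 and -0.86 ± 0.37, all less the shift of -0.23. With the background as a covariate none of the 3 was called. Without the arrays of raised background, the mean over the remaining pairs of both stages called Adgre1, Cx3cr1, Csf1r and Mrc1.

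Both DA arrays lay above both AA arrays for 8 of 10 genes in Eln WT at E17.5, 7 in Efemp2 and 9 in Lox, beside 20.3%, 16.6% and 15.3% of all genes. At P1 the counts were 1, 5 and 9, beside 17.9%, 15.9% and 44.5%, and in Eln WT at P1 6 genes lay below, beside 40.5%. C1qa in Lox WT at E17.5 lay below too, beside 18.1% of all genes, and 0 lay below in the others, beside 24.1% (Eln E17.5), 17.4% (Efemp2 E17.5), 13.6% (Efemp2 P1) and 4.74% (Lox P1). The WT arrays of this comparison are also the controls of the KO comparisons.

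**Figure D4:**
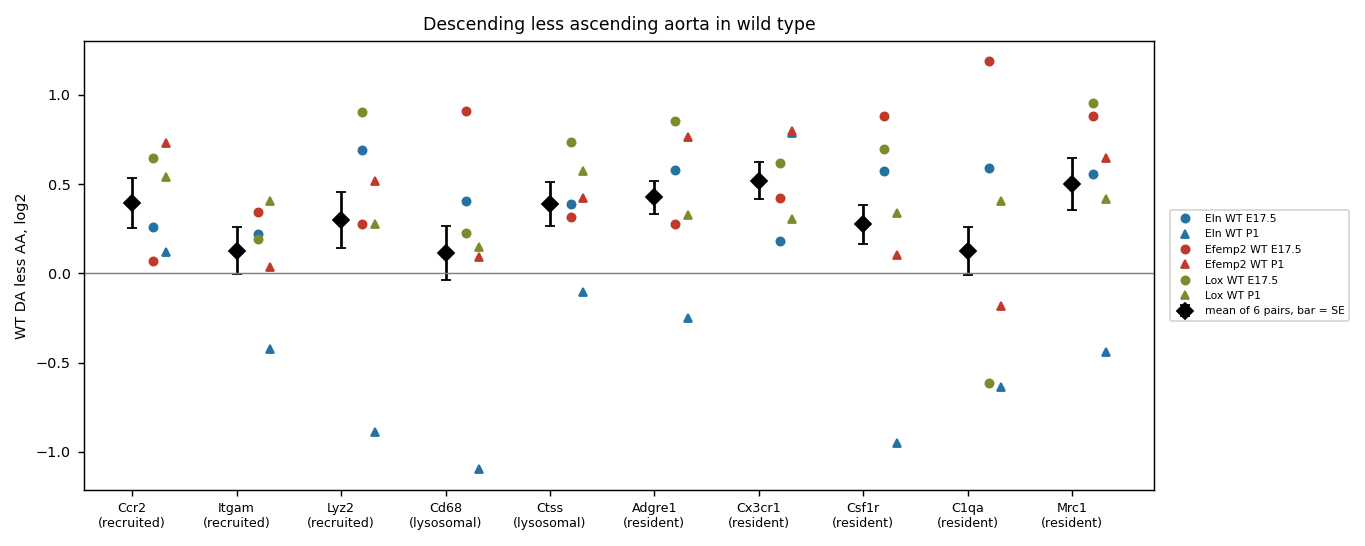
WT DA less AA (log2) for each gene in the 6 WT pairs (circles E17.5, triangles P1, coloured by model) and their mean with its standard error (diamonds and bars). Cx3cr1 is above 0 in all 6 pairs with a mean of 0.52, and the Eln WT P1 triangles of Csf1r, Cd68 and Lyz2 lie well below 0. The shift of all genes, -0.23 in Eln P1 and 0.15 in Lox P1, is not taken off the points.

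Across all 48 arrays, each less the mean of its model and stage, the median r was 0.69 over the 3 pairs of recruited markers (0.61 to 0.74), 0.53 over the 10 pairs of resident markers (-0.02 to 0.81) and 0.38 over the 15 pairs across the sides (0.11 to 0.70), so the ranges overlapped. Cx3cr1 had an r of -0.02 with C1qa of its own side and 0.43 with Ccr2 of the other. Cd68 and Ctss went with both sides, with a median of 0.73 with recruited and 0.65 with resident markers. The arrays of a group share genotype, location and stage, so these values are descriptions.

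The genes most like the mean of the 10 members over the same 48 arrays were Fcer1g (r = 0.867), the shared signalling chain of Fc receptors, C5ar1 (0.863), the receptor for complement C5a, and Clec4a1 (0.855), a lectin receptor. Pla2g7, Ms4a6c, S100a6, Lst1, Fcgr1, Ccl9 and Siglec1 followed at 0.853 to 0.838.

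Other genes of these cells were counted in fixed lists. Beside all list counts below stand 3.14% of all tested genes called higher and 0.665% lower in the Efemp2 mean. The shares were 0.561% higher and 1.00% lower in the Lox mean, and 2.74% and 0.541% in the Eln mean. In the Efemp2 mean contrast 19 of 21 tested general myeloid genes were called higher and 0 lower, with a median of 0.67. Among them were Cd53, a tetraspanin of leukocytes, at 1.18, Irf8, a transcription factor of monocytes, at 0.89, Laptm5 at 0.89 and Tyrobp, the adaptor of Trem2, at 0.85. Spi1, the gene of PU.1, rose by 0.62 ± 0.13 (adjusted p = 0.00382). The count of 19 fell to 10 with background as a covariate, 11 with the Efemp2 arrays alone and 13 without the arrays of raised background. In Lox the list had 1 gene higher (Cybb, of the phagocyte oxidase, at 0.58) and in Eln 0, of 21 each. The Lox count was 5 with the Lox arrays alone, 3 with loess or equal array medians and 0 with no filter or with the background covariate, and 0 to 2 with 1 array left out.

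Of 15 further resident macrophage genes, 6 were called higher in Efemp2 KO, with a median of 0.39: Ms4a7 at 0.72, the sialic acid receptor Siglec1 at 0.69, C1qb at 0.60, F13a1 at 0.59, Fcrls at 0.57 and the receptor for dying cells Mertk at 0.51. That count fell to between 1 and 2 under the same 3 settings, and was 2 to 7 with 1 array left out. Of 9 further recruited monocyte genes, 3 were called higher, with a median of 0.51: Hp (haptoglobin) at 1.02, Plac8 at 0.86 and Ifitm6 at 0.78. That count was 1 with the background covariate and 1 to 5 with 1 array left out. Ly6c2, which marks inflammatory monocytes, was at 0.51 ± 0.20 and did not pass (adjusted p = 0.184). In Lox 0 of 15 and 0 of 9 were called, and in Eln 1 of 15 (Cbr2, at 0.55) and 0 of 9.

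Of the lysosome and lipid-associated macrophage genes, 7 of 15 were called higher in Efemp2 KO, led by the lipid receptor Trem2 at 0.84 and Gpnmb at 0.67, but only 2 with the Efemp2 arrays alone or with the background covariate. Of the ligands and chemokines, 5 of 13 were higher, Ccl2 by 1.66 ± 0.21, Ccl6 by 1.33, Ccl7 by 1.09, Ccl8 by 1.08 and Ccl9 by 0.99. Ccl2 and Ccl7, ligands of Ccr2, were also the 2 of 13 called in Lox KO, at 1.25 ± 0.21 and 1.24 ± 0.23, while 0 of 13 were called in Eln KO. The ligands of Csf1r did not pass in any model, with Csf1 at 0.17 in Efemp2, 0.21 in Lox and 0.00 in Eln, and Il34 at 0.21, -0.21 and 0.32. Cx3cl1, the ligand of Cx3cr1, was at 0.16, 0.12 and 0.33 and did not pass either.

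Of 10 inflammatory products, 4 were called higher in Efemp2 KO, Saa3 (an acute phase protein) by 2.55 ± 0.29, Ptgs2 (prostaglandin synthase) by 1.72 ± 0.23, Arg1 by 1.10 and Il1b by 0.84, and Nos2 was lower by -0.47. In Lox KO Ptgs2 at 1.55 and Il6 at 0.85 were called, and in Eln 0 of 10. Of the class II genes, H2-Ab1 at 1.12 and H2-Aa at 0.93 were 2 of 6 called in Efemp2 KO.

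Markers of neutrophils, which share Itgam and Lyz2, moved with the Efemp2 result. Of 14, 9 were called higher and 1 lower, with a median of 0.69: the calgranulin genes S100a8 at 1.85 and S100a9 at 1.45, Stfa2l1 at 1.70 and Retnlg at 0.98 were the highest, while Ly6g, the defining surface marker, was lower at -0.73. The mean level of the list was 4.81 and 4.78 in WT and 6.24 and 5.75 in KO in AA at E17.5, 5.25 and 5.66 against 5.75 and 5.96 in DA, 5.68 and 5.21 against 6.50 and 6.39 in AA at P1, and 5.52 and 5.61 against 5.58 and 5.97 in DA. Under the filter level lay 11 of the 14 in WT and 4 in KO in AA at E17.5. Their part in the rise of Itgam and Lyz2 was not tested. In Lox KO, 0 of 14 were called, with a median of 0.24, and in Eln 0 of 14, with a median of 0.12. With the Lox arrays alone, where Itgam and Lyz2 were also called, 3 of 13 tested neutrophil genes were higher in Lox KO, and 2 of 14 were with the background covariate or without the arrays of raised background.

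Lists of other cell types were counted in the same way. In Efemp2 KO, 4 of 10 endothelial genes were called lower (Cldn5, Cdh5, Emcn and Egfl7, from -0.56 to -0.46), Pf4 of the 5 platelet genes was higher at 0.53, and none of 5 mast cell, 6 lymphocyte, 4 erythroid or 8 smooth muscle genes was called by limma. The endothelial count was 0 with the Efemp2 arrays alone and 8 with loess. The platelet list had 0 calls under 4 of 9 alternatives, and with the background covariate 2 mast cell genes were called lower. Over the 48 arrays Pf4 had an r of 0.794 with the mean of the 10 members, and which cells made it was not tested. The part of the endothelial change in the myeloid counts was not tested.

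**Figure D5:**
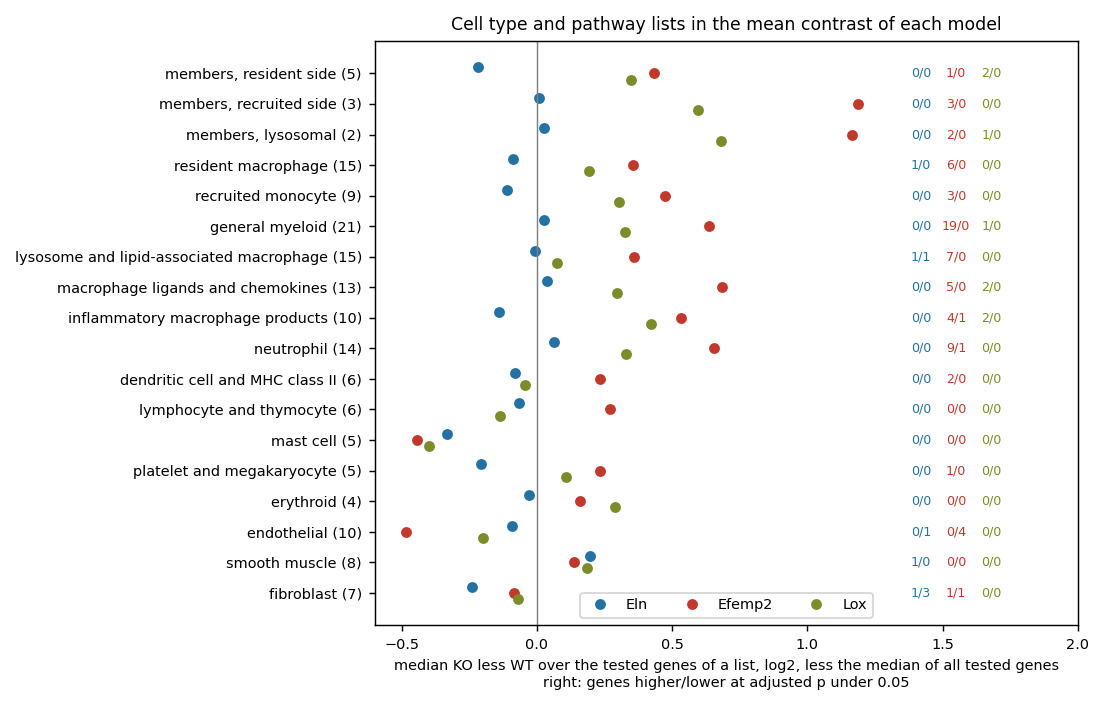
Median KO less WT (log2, less the median of all tested genes) over the tested genes of each list in the mean contrast of each model, with the number of tested genes in brackets and the counts called higher and lower at the right. General myeloid genes stand at 19 higher and 0 lower of 21 in Efemp2, against 1 in Lox and 0 in Eln.

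In WT, the descending aorta also had more RNA of other resident macrophage genes. In the mean WT location contrast 4.64% of all tested genes were called higher in DA and 3.96% lower, beside all WT list counts. Of 15, 6 were higher, Cd163, a haemoglobin scavenger receptor, by 0.51 ± 0.11, Ms4a7 by 0.46, C1qb by 0.44, F13a1 by 0.41, Fcrls by 0.39 and C1qc by 0.37, and Cbr2 was lower, at -0.47. With only the WT arrays fitted, 2 were higher and 1 lower, and with 1 array left out 3 to 8 of the 15 were called. Of 9 recruited monocyte genes Mcemp1 was higher at 0.38 and Plac8 lower at -0.51, and of 21 general myeloid genes 3 were higher, Fcgr3, Laptm5 and Lcp1, at 0.40 to 0.34.

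Mast cell and neutrophil genes were also higher in WT DA. Of 5 mast cell genes 4 were called, Mcpt4 by 1.46 ± 0.18, Cpa3 by 1.28, Cma1 by 0.93 and Tpsb2 by 0.84, and of 14 neutrophil genes 5, among them Stfa2l1 at 0.93 and S100a9 at 0.91, though only 2 neutrophil genes with the WT arrays alone. On the WT arrays the 7 mast cell genes with a probe set averaged 3.73 to 6.87 in AA and 4.39 to 7.65 in DA. Kdr, Vwf and Esam of 10 endothelial genes were higher too, and of 6 lymphocyte genes Cd3g, at -1.10, and Cd8a, at -0.61, were lower and Cd79a higher. The part of these cells in the location pattern of the 10 genes was not tested. Over the 48 arrays, the mean of the resident members had an r of 0.93 with the resident macrophage list and 0.59 with the mast cell list. The mean of the recruited members had 0.80 with the recruited monocyte list, 0.71 with the neutrophil list and -0.09 with the mast cell list. It had more with the general myeloid list, at 0.85, and with the ligands and chemokines, at 0.81. With the platelet list it had 0.78 and with the inflammatory products 0.77. These values are descriptions.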

How the data were processed

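The 48 arrays measured RNA of pooled mouse aortas. The deposited values are log2 signals by probe set, summarised by the authors using RMA and Affymetrix Expression Console, per the submitters' processing notes; versions, array and build are not given in the sources used here. The table held 41345 probe sets, 23521 of them with a single gene symbol, 1814 with several and 16010 unnamed, and a gene was read from its highest-mean probe set. A gene was tested when at least 1 of 24 group means reached 4.94, the median of single-symbol probe sets. RMA evens out array distributions and compresses low signals, and array medians differed between model and stage sets, so levels are compared only within a set.

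With limma 3.58.1 (R 4.3.3), 1 mean per group was estimated over the 48 arrays together (eBayes, 24 residual degrees of freedom), with Benjamini-Hochberg adjustment over the 15337 genes of each contrast and a threshold of 0.05. The number of arrays limits the precision. The fit was tested on simulated data.

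The members and the lists (186 genes, 175 with a probe set, 158 tested) were chosen with earlier results of these data known. Named were all members and, per list, called genes, at most 4 per direction by size or all where a count was small, the deleted genes, ligands of the members' receptors (chosen after their values were seen) and the 10 genes most like the members' mean. Alternatives were no filter, loess, equal array medians, the model's arrays alone, trended robust variances, a replicate block, a background covariate, 4 arrays of raised background left out, the mean of all probe sets of a gene, and each array left out in turn.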

Additional observations from a re-analysis of the deposited data

Results flagged for a closer look

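Some KO differences of the members differed between models, locations or stages when the difference itself was tested with limma. The Efemp2 KO difference exceeded the Eln KO difference by 0.93 for Adgre1, 1.26 for Itgam, 1.22 for Lyz2, 1.09 for Cd68 and 1.15 for Ctss (log2), with adjusted p values from 0.00247 for Adgre1 to 0.0468 for Cd68. The Cd68 call was lost under 35 of the 48 single arrays left out and the Lyz2 call under 12. The Lox KO difference exceeded the Eln KO difference by 0.91 for Adgre1 (less the shift of all genes, adjusted p = 0.0209). Within Eln, the Csf1r difference in DA exceeded that in AA by 1.00 less the shift (adjusted p = 0.0166), and both WT arrays of DA at P1 had a raised background. Within Efemp2, the Ccr2 difference at P1 was below that at E17.5 by -1.55 less the shift (adjusted p = 0.0361).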

How the results depend on the processing

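The 6 members called in the Efemp2 mean were called under all 9 alternatives and with each of the 48 arrays left out, and the Eln mean had 0 calls under all of them. Over all member values and settings, 3549 kept direction and side of the threshold, 201 lost a call, 27 gained one and 30 changed sign.

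Counts of members called moved as follows, the cause not tested. With no filter, Eln AA P1 had 0, Eln DA P1 had 1 and the Efemp2 stage comparison had 0. With loess, Eln AA P1 had 3, Eln DA P1 had 1, Efemp2 AA P1 had 2, WT location in Eln P1 had 1, and the Eln location and Efemp2 stage comparisons had 0. With only the arrays of the model, Eln AA P1 had 0, Efemp2 AA E17.5 had 3, Efemp2 AA P1 had 1, Lox AA E17.5 had 1, the Lox mean had 6, the Eln location comparison had 2 and the Efemp2 stage comparison had 0; differences between models cannot be fitted there. With array background as a covariate, Eln AA P1 had 3, Eln DA P1 had 0, Efemp2 AA P1 had 2, Lox AA P1 had 1, WT location in Eln P1 had 0 and in Efemp2 E17.5 and P1 had 1 each, and the Eln location comparison had 0. Without the 4 arrays of raised background, Eln AA P1 had 2, the WT location mean at P1 had 0, and the Lox less Eln and Efemp2 stage comparisons had 0; Eln DA P1, WT location in Eln P1 and the Eln location and stage comparisons had no WT array left, and the Eln mean was over 3 pairs.

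In most comparisons arrays with the same replicate number did not deviate together. Between KO and WT the correlation of same-numbered deviations was -0.23 to 0.20 (median 0.049, over 0.1 in 3 of 12). Between AA and DA it was -0.15 to 0.29 in WT (over 0.1 in 2 of 6) and -0.25 to 0.36 in KO (over 0.1 in 1 of 6). Such values cannot show whether arrays of the same number shared animals. With a replicate block, counts were 4 in Eln DA P1, 1 in Efemp2 DA P1, 1 for WT location in Efemp2 E17.5, 4 for the Eln location comparison and 7 in the Efemp2 mean.

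Leaving out 1 array at a time gave 3 to 7 calls in Efemp2 AA E17.5, 2 to 4 in Efemp2 AA P1, 0 to 1 for the Efemp2 location comparison, 0 to 2 for the Efemp2 stage comparison, 3 to 6 for Efemp2 less Eln, 0 to 1 for Efemp2 less Lox, 0 to 2 in Eln AA P1, 1 to 3 in Eln DA P1, 0 to 4 for the Eln location comparison, 0 to 2 in Lox AA E17.5, 1 to 4 in the Lox mean, 0 to 2, 0 to 1 and 0 to 1 for WT location in Efemp2 E17.5, Efemp2 P1 and Lox E17.5, 1 to 4 in Eln P1, and 2 to 5 for the WT location mean. A group left with 1 array is assumed to vary like the others.

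In the Eln mean, signs turned at small values. Csf1r was at -0.0037 with loess, -0.030 with the background covariate and -0.22 without the 4 arrays, C1qa at -0.034, -0.20 and -0.18, and Lyz2 at -0.13, -0.089 and -0.21, and at -0.054 with equal array medians. Itgam was at -0.012 with the covariate and Cx3cr1 at 0.012 without the 4 arrays. With 1 array left out, C1qa ran from -0.018 to 0.15, Ccr2 from -0.024 to 0.15, Cd68 from -0.20 to 0.18, Itgam from -0.017 to 0.17 and Lyz2 from -0.14 to 0.14. Signals of Ccr2 and Itgam near background limit what low levels can show.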
